A study of Mus musculus with 6 samples.

Results

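The genes described here encode hepatokines other than Fgf21, which are proteins that the liver secretes and that act on other tissues. They are the rows of the deposited liver RNA-seq table whose symbol was Selenop, Ahsg, Fetub, Lect2, Angptl4, Enho, Angptl6 or Fst, and all 8 were found, each in 1 row, among 27179 rows in all. The study sequenced the poly-A fraction of liver RNA in 3 Control and 3 LSD1-LKO mice on the C57BL/6 background. All mice carried floxed alleles of Lsd1 (Kdm1a), which encodes a histone demethylase. At 6 to 7 weeks of age, LSD1-LKO mice were injected through the tail vein with AAV8-TBG-Cre and Control mice with AAV8-TBG-GFP, and a high-fat diet started 1 week later. The thyroxine-binding globulin (TBG) promoter restricts Cre to hepatocytes, so other liver cells of the LSD1-LKO mice keep the gene. How long the diet lasted is not certain, since the series text has 12 weeks and the methods fewer. The sex of the mice is not stated in the labels. The study's methods give male mice for most experiments, and do not name the sex of the sequenced animals.

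Every value below is a mean over Control and LSD1-LKO livers together. The quantity in the table that can be used here is its base mean, 1 value per gene, which the authors obtained by averaging normalized read counts over all libraries. The other measurements in the table are the authors' own comparison of LSD1-LKO with Control and were not used. No difference between the groups is therefore reported, no spread between livers or depth per library is known, and the labels could not be checked against the level of Kdm1a in each liver. Levels are given as CPM, that is, the base mean of a gene per 1000000 of the summed base mean. Levels of different genes are compared as CPM per kilobase, after division by the median length of the protein-coding transcripts of each gene. Short annotated transcripts lower this median and so raise the level. The range over transcript lengths is given only for the members, so levels of other genes carry an error of this kind of unknown size. Genes with a very low base mean, such as Crygs (0.348) and Adipoq (0.666), rest on few reads, and their levels are imprecise.

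Hepatokines form no single family. Several are abundant plasma proteins made by hepatocytes at all times, such as the fetuins and selenoprotein P, whereas others, such as angiopoietin-like 4 and follistatin, are made by many tissues and respond to fasting, lipids or hormones. They act on insulin signaling, on lipases that release fatty acids from lipoproteins, on selenium supply to other organs and on ligands of the TGF-β superfamily.

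Mean levels of the hepatokine genes differed widely in these livers. Selenop and Ahsg were among the most abundant transcripts, Fetub, Lect2 and Angptl4 stood in the highest 10% of genes, Enho lay below them, and Angptl6 and Fst were near the middle of all genes above 0. Among the 11362 genes of at least 1 CPM, Angptl4 fell outside the highest 10%, with 87.1% of genes below it, and Angptl6 and Fst had 39.3% and 22.5% of genes below them. On the CPM per kilobase scale Selenop exceeded Fst, the lowest member, 4385-fold with median transcript lengths, 2804-fold with the longest transcripts and 1865-fold with the smaller basic set of GENCODE transcripts. Ahsg was the highest member under the last 2 choices, at 4144 and 2973 times the level of Fst. The order was Selenop (10654 CPM per kilobase), Ahsg (5863), Fetub (321.6), Lect2 (144.7), Angptl4 (53.9), Enho (25.5), Angptl6 (5.33) and Fst (2.43). The median of the 8 members was 99.3 CPM per kilobase, against 3.67 for all 15701 genes with a base mean above 0 and a known coding transcript length, and 7 of the 8 members lay above that median. The members together took 1.61% of the summed base mean, of which Ahsg and Selenop supplied 94.8%.

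**Figure D1:**
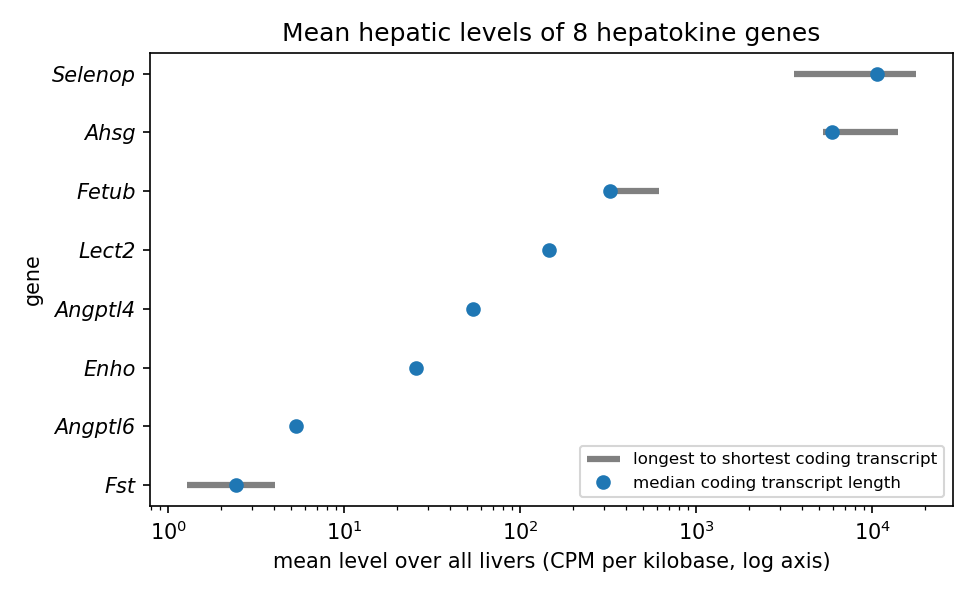
Mean level of each hepatokine gene over all livers, in CPM per kilobase on a log axis. Points use the median coding transcript length and bars run from the longest to the shortest coding transcript. The bars of Selenop and Ahsg overlap, and no other neighbouring pair does.

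The order could be judged only against the choice of transcript length, since the spread between livers is unknown. For Selenop the level ran from 3564 CPM per kilobase with its longest coding transcript of 2085 bases to 17692 with its shortest of 420 bases, and for Ahsg from 5266 to 13981. These ranges overlapped, so neither of the highest pair can be placed above the other. Fetub ran from 306.1 to 612.6 CPM per kilobase and Lect2 from 143.4 to 145.9. Angptl4, Enho and Angptl6 each have 1 coding transcript in the annotation and therefore no range. Fst ran from 1.27 to 4.04 CPM per kilobase, all below the 5.33 of Angptl6. That value of Angptl6 is uncertain for another reason, since exons of a gene on the opposite strand overlap it, so the order of these members is not secure.

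**Figure D2:**
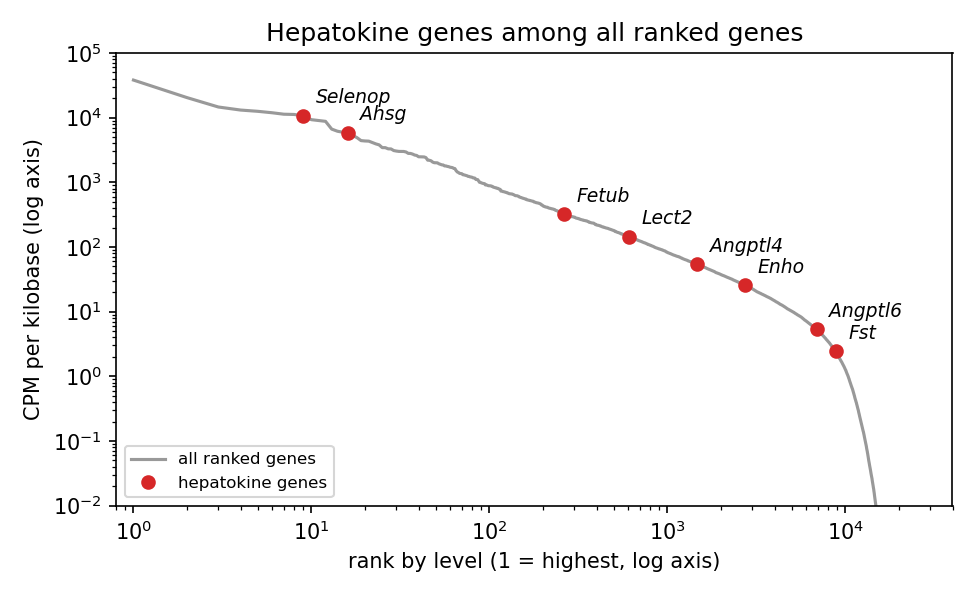
Level per kilobase (log axis) against rank (log axis, 1 is the highest level) for all ranked genes, as a line, with the hepatokine genes as points. With median transcript lengths, Selenop and Ahsg sit at ranks 9 and 16 on the upper end of the curve. Angptl6 and Fst sit at ranks 6893 and 8811 where it bends down.

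Selenop (Entrez 20363; GRCm38 chromosome 15, 3270767 to 3280510, plus strand) encodes selenoprotein P, the plasma protein that carries selenium from the liver to other organs. Its base mean was 153512, or 7431 CPM, and its level of 10654 CPM per kilobase ranked 9 of 15701. This rank rests on a short median transcript length of 697.5 bases. With the longest transcript the level was 3564 CPM per kilobase, and no rank under other lengths is given. The level with the median length was above that of each of 12 other selenoprotein genes. The highest of these was Gpx1, the cytosolic glutathione peroxidase, at 1749 CPM per kilobase, and Selenop stood above it also with its longest transcript. The lowest was Selenom, at 6.14 CPM per kilobase. The enzymes and factors that make selenocysteine and insert it during translation were lower than Selenop in all 8 cases. They ran from 480.2 CPM per kilobase for Sephs2, which makes the selenium donor, to 5.35 for Secisbp2, which binds the selenocysteine insertion element. Of the receptors that take up selenoprotein P, the broad lipoprotein receptor Lrp1 was at 279.0 CPM per kilobase. That value uses a median transcript length of 2492 bases. Lrp2, the receptor of the kidney, was at 0.671 and Lrp8, that of brain and testis, at 0.0282 CPM per kilobase. Exons of Ccdc152 on the opposite strand cover 15.4% of the exon bases of Selenop. The use of strand in counting is not given in the sources used here, so reads in that stretch cannot be assigned, and Ccdc152 had a base mean of 87.4, far below that of Selenop.

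Ahsg (Entrez 11625; GRCm38 chromosome 16, 22892015 to 22899451, plus strand) and Fetub (Entrez 59083; 22918382 to 22939768, plus strand) encode fetuin-A and fetuin-B. Fetuin-A binds calcium phosphate in plasma and inhibits the insulin receptor, and fetuin-B inhibits a protease that hardens the egg coat. Ahsg had a base mean of 161455, or 7815 CPM, and Fetub one of 10100, or 488.9 CPM. Per kilobase Ahsg ranked 16 and Fetub 263 of 15701. The level of Ahsg was 18.2 times that of Fetub, although the genes follow each other on the same strand with 18.9 kb between them.

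**Figure D3:**
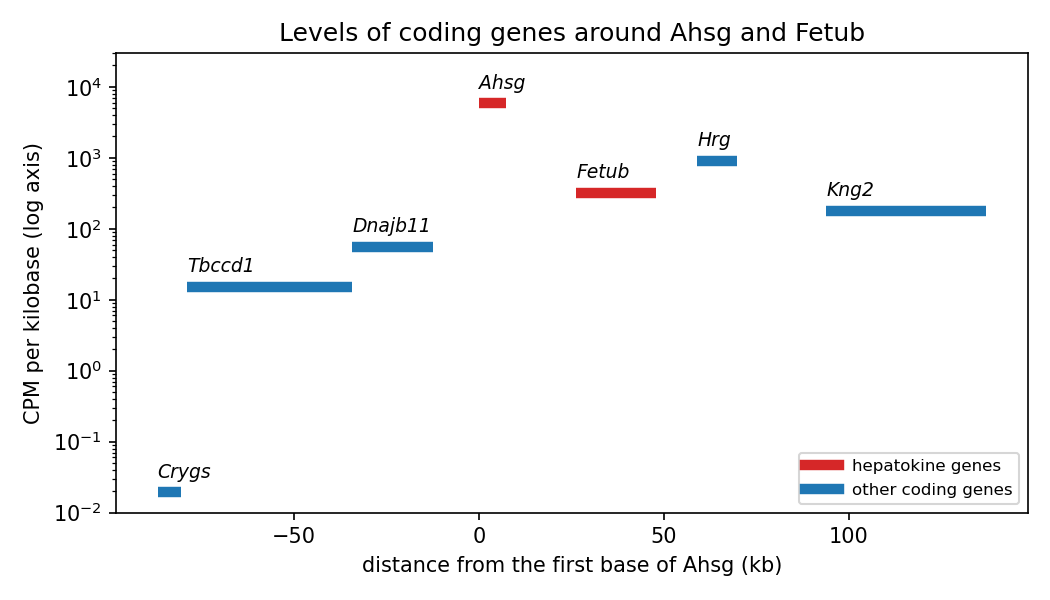
Level per kilobase (log axis) of each coding gene within 100 kb of Ahsg or Fetub, drawn over its extent in kb from the first base of Ahsg. The run from Ahsg to Kng2 lies at 178 CPM per kilobase or more, and the genes on the left side lie at 56.0 or less.

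Ahsg and Fetub lie in a block of related plasma protein genes of the cystatin superfamily, and high levels covered the whole block. Hrg, the gene for histidine-rich glycoprotein, followed Fetub at 911.7 CPM per kilobase, and the kininogen gene Kng2 came next at 177.9. On the other side of Ahsg, the ER chaperone gene Dnajb11 was at 56.0 CPM per kilobase, Tbccd1 at 15.3 and the lens crystallin gene Crygs at 0.0193. Kng1, the other kininogen gene, was at 1208 CPM per kilobase. Among the 6 cystatin superfamily genes examined, Ahsg was the highest and Cst3, which encodes cystatin C, the lowest at 123.0 CPM per kilobase. Of genes for proteins that fetuins bind or inhibit, the asialoglycoprotein receptor subunit Asgr2 was at 238.2 CPM per kilobase and the insulin receptor gene Insr at 38.5. Mep1a, a metalloprotease subunit, was listed at 0.

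The bases upstream of the annotated starts are shown for Selenop, Ahsg and Fetub, because these were the highest members and all share a run of letters there. RefSeq windows (GRCm38.p6) were matched for 5 members, Selenop, Ahsg, Fetub, Lect2 and Angptl6. The letters TTTGCAA, sought on both strands in the 100 bases before each start, were present before 1 start each of Selenop, Ahsg and Fetub. They were not in the windows of Lect2 and Angptl6. The run was noticed in these sequences and then counted, and 0.989% of all 32851 RefSeq windows of that length hold it. It begins 77 bases before the start of Ahsg, 40 before that of Fetub and 82 before 1 of the 3 starts of Selenop. In the following stretches of 30 bases, 5′ to 3′ on the plus strand, capitals mark it.
Ahsg, chr16:22891927-22891956: cagagctgctgTTTGCAAggattatttgga
Fetub, chr16:22918331-22918360: ggcgcactctgTTTGCAAgatataaaaggg
Selenop, chr15:3270884-3270913: ggcttgctgcaTTTGCAAggtcgcagcggg
The letters TATAAA, the core of a TATA box, begin 31 bases before the same start of Fetub and 10 before the same start of Selenop, and 5.56% of all windows hold them on either strand. The 100 genes of highest level per kilobase, of which 70 have a window, were counted by gene rather than by window. TATAAA was present in 13 of the 70 (18.6%), Selenop among them, against 4.22% of the 12468 ranked genes with a window. TTTGCAA was present in 3 (4.29%), against 0.850%, but 2 of the 3 were Ahsg and Selenop themselves. Since the run was noticed in these members, its share among the highest genes is not evidence of a higher frequency there. A match of letters describes the sequence and does not show that a protein binds there.

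Lect2 (Entrez 16841; GRCm38 chromosome 13, 56529734 to 56548559, minus strand) encodes leukocyte cell-derived chemotaxin 2, a hepatokine linked to insulin resistance in muscle. Its base mean was 2480, or 120.1 CPM, and its level of 144.7 CPM per kilobase ranked 612 of 15701. Genes of its reported receptors were lower in the liver itself. The hepatocyte growth factor receptor Met was at 53.0 CPM per kilobase, and the endothelial receptor Tie1 at 2.69. The lectin gene Cd209a was at 0.338 CPM per kilobase. Its relative Cd209b, examined beside these receptor genes, was the lowest of the list at 0.229.

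Angptl4 (Entrez 57875; GRCm38 chromosome 17, 33774900 to 33781575, minus strand) and Angptl6 (Entrez 70726; chromosome 9, 20873808 to 20879822, minus strand) encode angiopoietin-like proteins. ANGPTL4 inhibits lipoprotein lipase and is a target of the PPAR nuclear receptors, and ANGPTL6 was described as a factor that counteracts obesity in mice. Angptl4 had a base mean of 3681, or 178.2 CPM, and Angptl6 one of 174.3, or 8.44 CPM. Angptl4 exceeded Angptl6 10.1-fold per kilobase, and they ranked 1470 and 6893 of 15701.

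Of the other angiopoietin-like genes examined, Angptl8, whose product takes part in the control of lipoprotein lipase, was at 26.5 CPM per kilobase. Angptl7 was at 0.248 and Angptl1 at 0.0443 CPM per kilobase, the lowest of that list. Among the lipases, hepatic lipase Lipc was at 117.6 CPM per kilobase, endothelial lipase Lipg at 6.90 and lipoprotein lipase Lpl at 2.32. The value of Angptl6 is uncertain, since exons of A230050P20Rik on the opposite strand cover 16.8% of its exon bases and that gene had the higher base mean, 425.0.

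**Figure D4:**
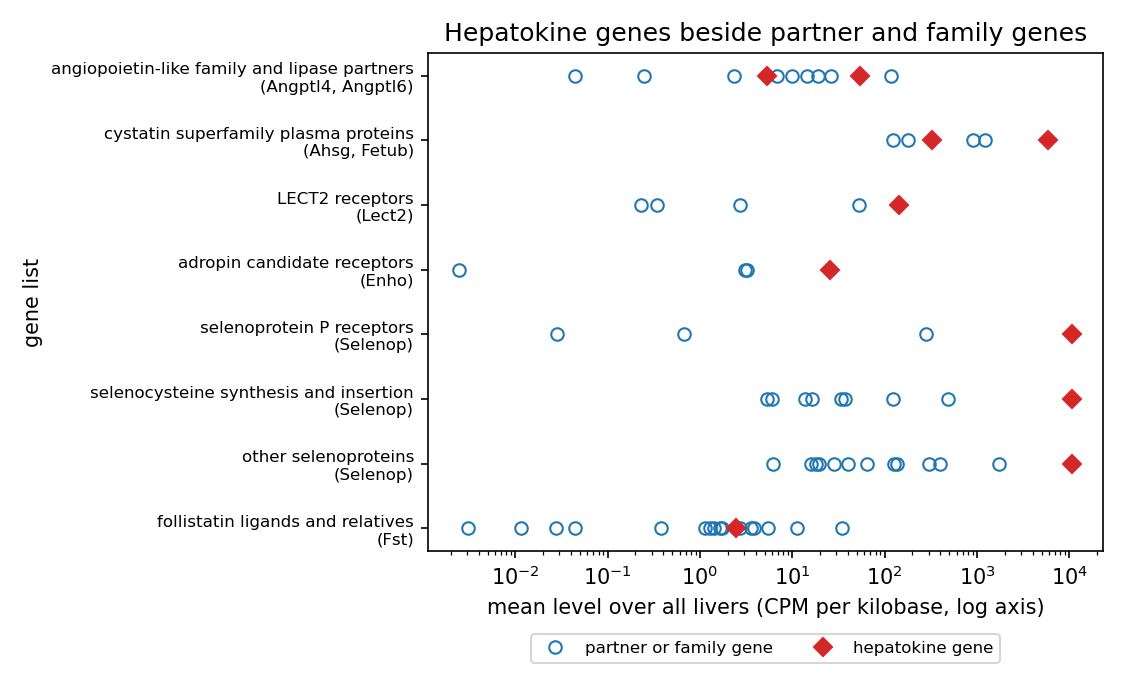
Levels per kilobase (log axis) of the hepatokine genes (diamonds) beside genes of their receptors, partners and families (circles), by list. Selenop lies to the right of every circle in its 3 lists, as do Ahsg, Lect2 and Enho in theirs. Fetub, Angptl4, Angptl6 and Fst lie among the genes of their lists.

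Enho (Entrez 69638; GRCm38 chromosome 4, 41638144 to 41640302, minus strand) encodes adropin, a small peptide linked to energy homeostasis and fuel choice. Its base mean was 669.6, or 32.4 CPM, and its level of 25.5 CPM per kilobase ranked 2725 of 15701. The gene for its proposed receptor Gpr19 was at 3.23 CPM per kilobase, Notch1 at 3.07 and Cntn6, an adhesion protein of neurons, at 0.00246. The base mean of Cntn6 was 0.177, too low to give a precise level. Exons of other genes on the opposite strand cover 1.18% of those of Enho.

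Fst (Entrez 14313; GRCm38 chromosome 13, 114452262 to 114458989, minus strand) encodes follistatin, which binds activins and related ligands and keeps them from their receptors. It was the lowest member, with a base mean of 74.4, or 3.60 CPM, and its level of 2.43 CPM per kilobase ranked 8811 of 15701. The activin subunit genes of hepatocytes were higher, Inhbc at 34.1 CPM per kilobase and Inhbe at 11.3. Inhba was at 1.13 CPM per kilobase, Inhbb at 0.379 and the myostatin gene Mstn at 0.00305, the lowest of the 16 genes of this list. The base mean of Mstn was 0.163, too low to give a precise level. The level of Inhba lies just below the range that the transcript lengths give Fst. Of its relatives, Fstl1 was at 1.28 CPM per kilobase, inside that range, and Fstl3 at 0.0277. The receptor genes Acvr2a and Acvr1b were at 5.43 and 3.80 CPM per kilobase, the latter inside that range too.

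Beside other factors that the liver secretes, the highest members were near the most abundant. The retinol carrier Rbp4 was at 4334 CPM per kilobase, and Igf1 at 593.9. Fgf21 itself was at 3.88 CPM per kilobase, below the value of Angptl6, which is itself uncertain. The value of Fgf21 lies inside the range that the transcript lengths give Fst, so Fgf21 cannot be placed above or below Fst. As a mean over both groups, it need not hold for either group alone. The stress-induced factor Gdf15 was the lowest of the 16 such genes at 1.97.

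Hepatocyte markers were high in these samples labelled as liver. The 12 hepatocyte markers lay between 289.7 (Hnf4a) and 38141 (Alb) CPM per kilobase, with a median of 1761. Their summed level was 71204, of which Alb alone gave 38141. The other liver lists were smaller, with 8 Kupffer cell and macrophage, 8 endothelial, 8 stellate cell and fibroblast, 6 cholangiocyte and 6 lymphocyte markers. The summed levels were 91.0 CPM per kilobase for Kupffer cell and macrophage markers, 148.6 for sinusoidal endothelial markers, 137.5 for stellate cell and fibroblast markers, 44.4 for cholangiocyte markers and 2.54 for lymphocyte markers. Single genes carried much of these sums, such as Stab1 at 68.1 of the endothelial, Dcn at 94.1 of the stellate and Spp1 at 41.2 of the cholangiocyte sum. Stab1 was divided by a median transcript length of 591 bases and Stab2 by 8228, although their CPM were 40.2 and 29.5. The level of Stab1 and the endothelial sum therefore depend on that short length. The medians ran in another order, at 10.2 CPM per kilobase for Kupffer cell, 7.04 for endothelial, 2.48 for stellate cell and 0.783 for cholangiocyte markers. Of 6 skeletal muscle and adipocyte markers 4 (Acta1, Ckm, Plin1 and Lep) were listed at 0, and the highest, Adipoq, was at 0.0352 CPM per kilobase. The marker levels of non-hepatocyte liver cells, such as Timd4 at 1.92 and Dcn at 94.1 CPM per kilobase, span those of Enho and Angptl4, and Fst and Angptl6 also lie within the range of these markers. Which cells made the transcripts of these 4 members was not tested, and in whole liver fewer cells of a type and less RNA per cell cannot be told apart. Kdm1a was at 5.18 CPM per kilobase over the livers of both groups.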

How the data were processed

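Reads were aligned to mm10 with STAR and processed with StringTie and DESeq2 in Galaxy, per the submitters' processing notes and the study's methods. Tool versions, the annotation and the strand setting were not given in the sources used here. Base means deposited by the authors are a signal, the mean over all libraries of counts scaled by size factors. The table also holds the log2 fold change, its standard error, the Wald statistic, the p-value and the adjusted p of the authors' own comparison, which were neither used nor printed. No column held values per liver, so the tests planned between LSD1-LKO and Control were not run. The depth per library is unknown.

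Of 27179 rows, 18442 had a base mean above 0, and 15701 of these had a protein-coding transcript length. Lengths were taken by Entrez identifier from GENCODE M21 (GRCm38, the build also called mm10), coordinates from RefSeq GRCm38.p6. The rule for named genes took the members, genes within 100 kb of Ahsg or Fetub, and from each of 10 partner and 7 marker lists the highest and lowest genes and those at 0. Kdm1a and the other genes named from the lists were chosen after their values were seen, as was the run TTTGCAA. An item of the lists is not reported here. The members and lists were chosen with earlier results of these data known. Coding transcripts were compared with all other GENCODE transcripts by blastn 2.17.0, and no matches of at least 95% over at least 100 bases were found outside the overlapping antisense genes. Level and rank calculations were checked on simulated data (Python 3.11.15, pandas 2.3.3).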

Additional observations from a re-analysis of the deposited data

How the results depend on the processing

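The members' share of the summed base mean was 1.70% without mitochondrially encoded genes in the sum. With the 10 highest genes left out of the sum, the members' base means came to 1.97% of it. Ahsg ranked 10 by CPM, so it was left out of that sum but kept among the members. The 1.97% is therefore not a true share. The number of members in the highest 10% of genes was 5 with the median, longest or basic-set transcript lengths and without division by length, and 4, without Angptl4, with the shortest transcript or among genes of at least 1 CPM. The basic set, GENCODE's smaller set of transcripts, was added after the data were seen. Ahsg stood above Selenop with the longest transcript, with the basic set (Selenop at 3627 CPM per kilobase) and without division by length, and Angptl4 stood above Lect2 without division by length. Of 56 alternative values of single genes, 46 stayed within 1.5 times of the reported value, and the 10 others were levels per kilobase of Selenop, Ahsg, Fetub and Fst and ranks of Angptl4, Ahsg and Lect2. The count of 46 does not measure robustness, because many of these values could hardly move. A change of the sum scales every gene by the same factor, and all members are above 1 CPM. Angptl4, Enho and Angptl6 each have 1 coding transcript, so their length alternatives are identical. No paired analysis was possible because the value used is a mean over all livers. For the same reason no replicate could be left out, and the alternatives of normalization, low-count filter and replicate block planned for values per liver were not run. How far the levels varied between livers or groups was not analysed here.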
